A study of Homo sapiens with 4 samples.

Results

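The 30 genes described here encode the enzymes, carriers and assembly factors of fatty acid oxidation in mitochondria and peroxisomes. Their rows were taken by gene symbol alone: each is a row of the deposited expression tables whose symbol equals 1 of 30 fixed names. All 30 were found among the 20226 genes listed. The names were chosen with earlier results of these data known. By textbook location 16 are mitochondrial and 13 are peroxisomal, and ECI2, whose protein is found in both organelles, was kept apart. The study compared Huh7 cells, an established human hepatocyte-derived carcinoma line, in which a short hairpin RNA targets NUP210 (shNUP210) with control cells (shCon), 2 libraries each. Per the labels, both groups were otherwise untreated, and the genotype of the controls is given as wild type. The hairpin sequence, its vector and the number of clones are not given in the sources used here, and it is not stated whether replicate libraries are separate cultures, so every p-value below speaks only to variation among these 4 libraries, possibly all of it technical.

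Mitochondria shorten fatty acids by beta-oxidation: carnitine carries the chain across the inner membrane, and a repeating set of reactions then removes acetyl-CoA and passes electrons to the respiratory chain through electron transfer flavoprotein. Peroxisomes shorten very long and branched chains and bile acid precursors, and hand the shorter products on. They import folded enzymes through a set of proteins named peroxins. The liver carries out both pathways and turns much of the acetyl-CoA into ketone bodies.

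NUP210, the gene targeted by the hairpin and a membrane protein of the nuclear pore, was at 10.1 and 9.85 TPM after knockdown and at 32.8 and 27.3 TPM in shCon. TPM is an expression level per transcript length and library total, and it keeps no read depth, so the depth is unknown and no counting interval can be given. All 10 hepatocyte markers were expressed, with a summed level of 31904 and 32568 TPM in shNUP210 against 45892 and 47532 TPM in shCon. APOA2 was the most abundant of them, reaching 28242.7 TPM, and the sums do not show which markers differed. Of 5 leukocyte markers CD14 and LYZ had rows, summing to 23.3 to 34.3 TPM in shNUP210 and 134 to 135 TPM in shCon, most of it LYZ, and PTPRC had none. Fibroblast markers summed to 37.3 and 19.5 TPM in shNUP210 against 11.9 and 16.5 TPM in shCon over 6 genes with rows, and none of the 4 endothelial markers had a row. The part of these marker differences in the results below was not tested. In bulk RNA, fewer cells with a transcript and less of it per cell cannot be told apart.

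None of the 30 genes was called changed after NUP210 knockdown, 3 of them being too low to test. The test was limma on log2(TPM + 1), with p-values adjusted by the Benjamini-Hochberg method over 10140 genes (5 TPM or more in any 2 libraries) and a threshold of 0.05. It covered 27 of the 30 genes and called 0 of them, where 2.86% of all genes tested were called. The log2 fold change was above 0 in 18 of the 27, against 68.9% of all genes. At an unadjusted p under 0.05 there were 6 of 27, 2 higher (ACAA1 and ABCD3) and 4 lower (ETFB, ECI1, HADH and PEX16), against 24.3% of all genes (18.4% higher and 5.95% lower). The smallest limma adjusted p was 0.0601, for ETFB. CPT1A, ACADL and PEX6 were too low to be tested, and PEX3 passed the level filter through the shNUP210 libraries alone.

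The electron transfer genes are where the lowest adjusted p was found, so the sequence upstream of both subunit genes is shown first, beside that of HADHB, whose gene starts head to head with HADHA, that of its partner subunit. The sequences are RefSeq windows on GRCh38.p14, cut to the 250 bases before the start of transcription and printed in the direction of the named gene. Capitals mark a CCAAT box (CCAAT) or a GC box (GGGCGG), each on either strand.
ETFA, chr15:76311470-76311719, minus strand: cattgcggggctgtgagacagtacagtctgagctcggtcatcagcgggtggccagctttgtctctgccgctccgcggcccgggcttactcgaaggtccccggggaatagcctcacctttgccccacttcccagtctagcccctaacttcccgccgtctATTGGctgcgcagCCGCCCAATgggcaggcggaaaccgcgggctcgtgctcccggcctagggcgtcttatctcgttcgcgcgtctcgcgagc
ETFB, chr19:51366389-51366638, minus strand, the outer of 2 starts: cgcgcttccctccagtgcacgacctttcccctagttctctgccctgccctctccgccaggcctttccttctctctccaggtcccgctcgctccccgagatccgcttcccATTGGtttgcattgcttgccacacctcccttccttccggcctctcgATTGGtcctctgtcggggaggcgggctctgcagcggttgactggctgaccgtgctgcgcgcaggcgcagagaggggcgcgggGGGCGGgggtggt
HADHB, chr2:26244689-26244938, plus strand: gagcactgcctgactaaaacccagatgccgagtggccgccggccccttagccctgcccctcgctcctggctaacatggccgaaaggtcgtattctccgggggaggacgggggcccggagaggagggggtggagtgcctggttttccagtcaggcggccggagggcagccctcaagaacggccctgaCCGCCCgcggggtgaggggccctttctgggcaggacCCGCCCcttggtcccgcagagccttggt

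Both electron transfer subunit genes held 2 CCAAT boxes and 1 GC box in these bases, and in ETFA a CCAAT box overlaps the GC box. The HADHB bases held 2 GC boxes and no CCAAT box. The HADHA start lies 307 bases from the HADHB start on the other strand, and 194 bases of their windows are the same DNA. Over the 33 RefSeq windows of 300 bases (50 of them after the start) found for 24 of the genes, a GC box stood in 69.7%, against 45% of all 35116 windows. The CCAAT box stood in 21.2% against 34.6%. The nuclear receptor half-site AGGTCA was in 0 of the 33 windows, against 13.8% of all. The direct repeat AGGTCANAGGTCA (0.0228% of all) contains that half-site, so its absence from the 33 follows and adds nothing. The shares of all windows were not limited to genes expressed here. The motif counts are matches of letters within short windows and say nothing of binding.

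The carnitine shuttle opens the mitochondrial pathway. CPT1A (chromosome 11, 68754620 to 68844410, minus strand), the outer-membrane acyltransferase that controls entry of long chains in liver, was at 2.57 and 2.12 TPM in shNUP210 and at 0.87 and 0.28 TPM in shCon. Both knockdown libraries were above both controls, at a level too low for the filter. With the filter lowered to 1 TPM in any 2 libraries its log2 fold change was 1.11, with a limma adjusted p of 0.245. CPT2 (chromosome 1, 53196429 to 53214197, plus strand), the inner-membrane acyltransferase that regenerates acyl-CoA, was at 11.5 and 9.97 TPM against 5.82 and 7.04 TPM. The groups did not overlap, and the log2 fold change was 0.66 (SE 0.32, limma adjusted p = 0.265), the highest of the 27. CPT2 shares 1151 exon bases with RP5-1024G6.2 on the opposite strand, which was listed at means of 38.0 and 39.8 TPM, and counting by strand is not stated in the sources used here.

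**Figure D1:**
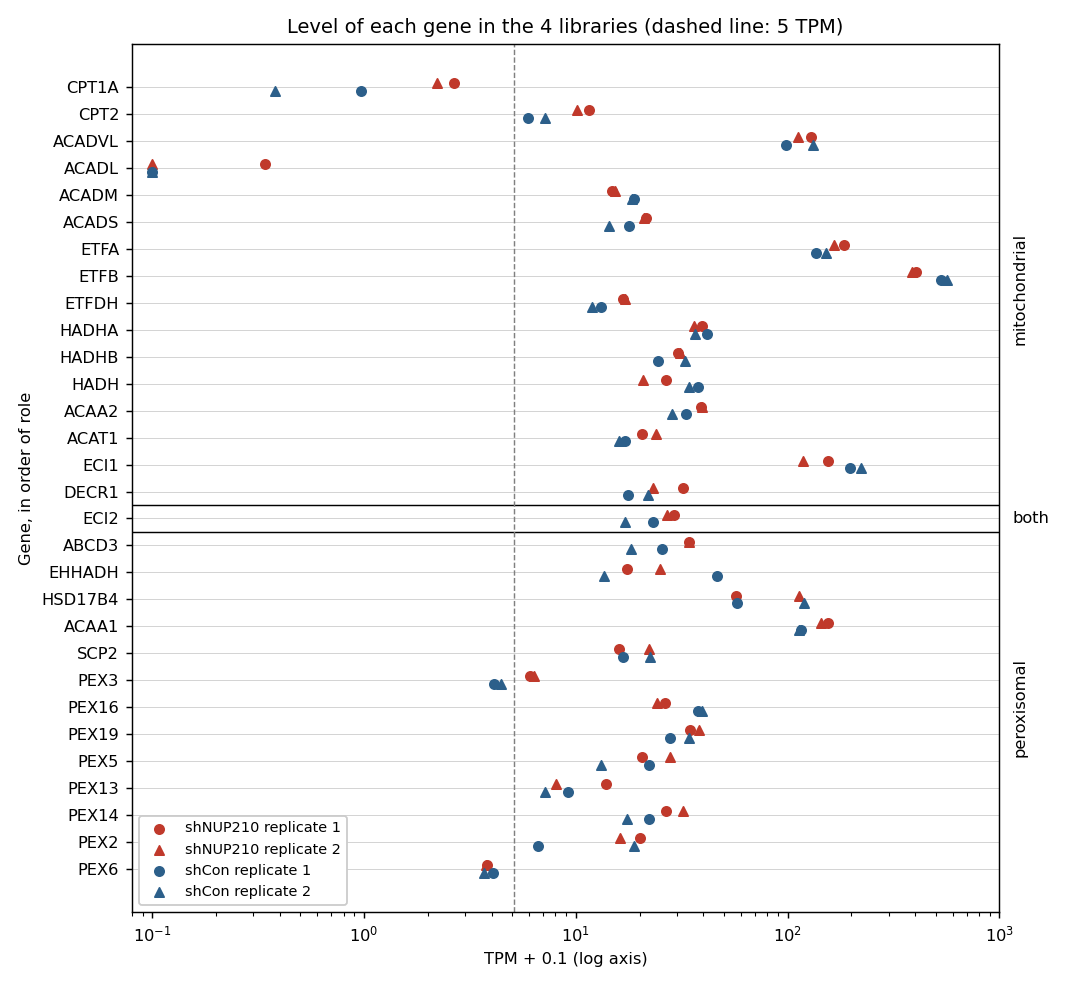
TPM + 0.1 of each of the 30 genes (horizontal log axis) in the 4 libraries, ordered by role from the carnitine shuttle to the peroxins, with circles and triangles for replicates 1 and 2 of shNUP210 (red) and shCon (blue). CPT1A, ACADL and PEX6 lie left of the dashed filter line at 5 TPM in all 4 libraries, and ETFB is highest, between 387 and 567 TPM.

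The acyl-CoA dehydrogenases carry out the opening oxidation, each for a range of chain lengths. ACADVL, for very long chains, was by far the most abundant, at 129 and 112 TPM in shNUP210 and 98.2 and 131 TPM in shCon. Its groups overlapped, and the log2 fold change of 0.084 (95% interval -0.36 to 0.53) was negative under each of the other 5 scalings of the libraries. ACADM, for medium chains, was at 14.7 and 15.3 TPM against 18.6 and 18.3 TPM. Replicates were tight and both knockdown libraries were lower, but the log2 fold change of -0.28 (SE 0.23) had a limma adjusted p of 0.482. ACADS, for short chains, was at 21.4 and 20.9 TPM against 17.6 and 14.3 TPM (log2 fold change 0.39, limma adjusted p = 0.348). It was thus on the other side of 0 from ACADM, and neither passed the test. ACADL, for long chains, was at 0.24 TPM in shNUP210 replicate 1 and listed at 0 in the other 3 libraries.

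Electron transfer flavoprotein takes electrons from all these dehydrogenases, as a dimer of the ETFA and ETFB products. ETFB (chromosome 19, 51345169 to 51366418, minus strand), the beta subunit, was at 405 and 387 TPM in shNUP210 and at 527 and 567 TPM in shCon. ETFA (chromosome 15, 76215355 to 76311472, minus strand), the alpha subunit, was at 185 and 166 TPM against 136 and 151 TPM. In TPM as deposited the groups did not overlap for either gene: ETFB was lower and ETFA higher in both knockdown libraries. After trimmed-mean scaling the ETFA groups overlapped and the ETFB groups did not. The log2 fold change of ETFB was -0.46 (SE 0.089, 95% interval -0.68 to -0.24, limma adjusted p = 0.0601) and that of ETFA 0.29 (SE 0.13, 95% interval -0.024 to 0.60, limma adjusted p = 0.232). ETFDH, the membrane oxidoreductase that passes these electrons to ubiquinone, was at 16.6 and 17.0 TPM against 13.0 and 11.8 TPM (log2 fold change 0.41, limma adjusted p = 0.348). ETFDH shares 490 exon bases with PPID on the opposite strand, listed at means of 35.1 TPM in shNUP210 and 27.7 TPM in shCon.

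ETFB passed the threshold under 3 of 5 other scalings, as the sole member to do so. Its log2 fold change was -0.73 after trimmed-mean scaling and after median-ratio scaling and -0.76 after upper-quartile scaling (limma adjusted p 0.0288, 0.0291 and 0.0264), where 3.26, 3.27 and 3.4% of all genes were called. After quantile and cyclic loess normalization it was -0.47 each (limma adjusted p 0.0608 and 0.0659), where 2.0 and 1.99% of all genes were called. The median log2 fold change of all genes tested was 0.23 in TPM as deposited and between -0.044 and 0.0093 under those 5 scalings. ETFA stayed between -0.011 and 0.19 under them, crossing 0 after upper-quartile scaling.

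The ratio of partner genes within a library does not change when the library is scaled by a single factor, as in trimmed-mean, median-ratio and upper-quartile scaling. Quantile and cyclic loess normalization can change it, and the ratios here are of TPM as deposited. The ETFA to ETFB ratio was 0.456 and 0.428 in shNUP210 and 0.258 and 0.267 in shCon, and the ETFDH to ETFB ratio was 0.0410 and 0.0440 against 0.0247 and 0.0209. In both knockdown libraries there was thus more ETFA and ETFDH transcript per ETFB transcript, 1.68-fold and 1.87-fold by the geometric means. Across 10 such pairs, picked with the values known, the groups did not overlap in 6. For the levels of single genes, 42.9% of all tested were higher and 14.3% lower without overlap, no such share was computed for pairs, and the count is not read as a result about them. With 2 libraries a group the exact two-sided permutation test cannot give a p below 0.33, which was the value for each of the 6 (0.55 after Benjamini-Hochberg adjustment over the 10 pairs).

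**Figure D2:**
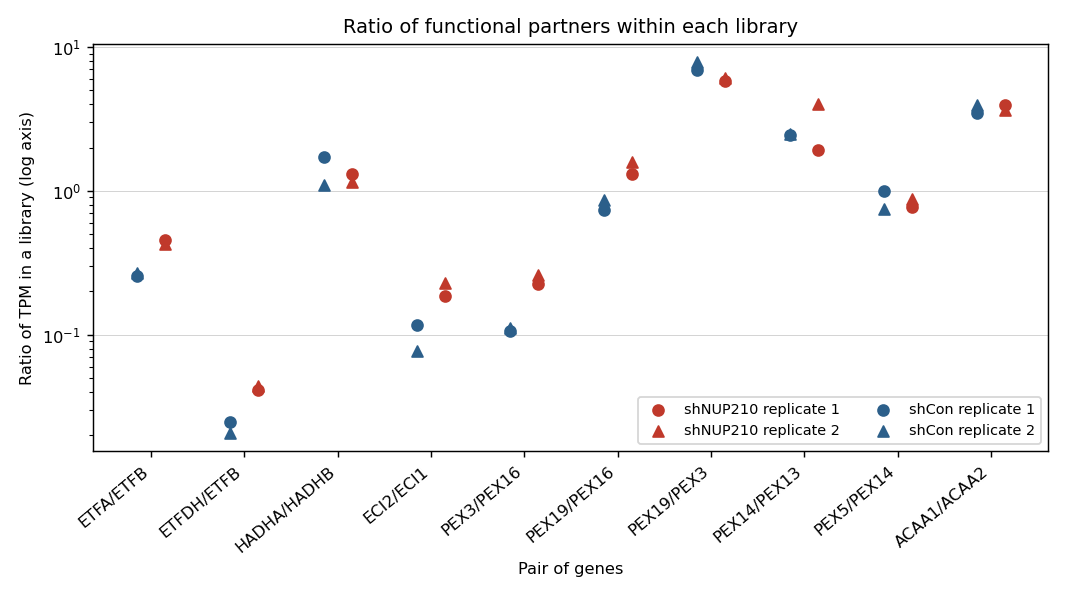
Ratio of TPM of 10 pairs of partner genes (log axis) in each library, with shCon in blue on the left and shNUP210 in red on the right of each pair, and circles and triangles for replicates 1 and 2. ETFA/ETFB lies at 0.428 to 0.456 in shNUP210 and 0.258 to 0.267 in shCon, whereas HADHA/HADHB overlaps between the groups.

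The trifunctional protein completes the cycle for long chains. HADHA, its alpha subunit with the hydratase and dehydrogenase activities, was at 39.5 and 35.9 TPM in shNUP210 and 41.5 and 36.3 TPM in shCon. HADHB, its beta subunit with the thiolase activity, was at 30.2 and 31.0 TPM against 24.2 and 32.8 TPM. Both overlapped between the groups, with log2 fold changes of -0.043 (95% interval -0.49 to 0.40) and 0.12 (-0.43 to 0.67). Under the other 5 scalings HADHA was between -0.33 and -0.27, and HADHB turned negative under each. After trimmed-mean scaling HADHA was lower in both knockdown libraries than in both controls. The HADHA to HADHB ratio ran from 1.11 to 1.72 over the 4 libraries, with both extremes in shCon.

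The soluble enzymes that finish shorter chains differed in sign. HADH (chromosome 4, 107989714 to 108035175, plus strand), the dehydrogenase for medium and short chains, was at 26.5 and 20.7 TPM in shNUP210 and 37.7 and 34.0 TPM in shCon. Both knockdown libraries were lower, with a log2 fold change of -0.59 (SE 0.21, limma adjusted p = 0.174). ACAA2, a thiolase, was at 39.1 and 39.4 TPM against 33.0 and 28.4 TPM, and ACAT1, the thiolase that also acts in ketone body metabolism, at 20.3 and 23.7 TPM against 17.0 and 15.8 TPM. Both were higher in both knockdown libraries, with log2 fold changes of 0.35 and 0.40 and limma adjusted p of 0.297 and 0.329. After trimmed-mean scaling the values were 0.085 and 0.14, and the ACAA2 groups overlapped. ACAT1 shares 163 exon bases with RP11-144G7.2 on the opposite strand, listed at means of 16.9 TPM in shNUP210 and 7.9 TPM in shCon.

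Unsaturated chains need isomerases and a reductase to enter the cycle. ECI1 (chromosome 16, 2239395 to 2252300, minus strand), the mitochondrial enoyl-CoA isomerase, was at 155 and 118 TPM in shNUP210 and 196 and 222 TPM in shCon. ECI2 (chromosome 6, 4115689 to 4135597, minus strand), the isomerase of both organelles, was at 28.9 and 26.9 TPM against 23.0 and 17.0 TPM. The groups did not overlap for either, ECI1 being lower and ECI2 higher after knockdown. ECI1 had the lowest log2 fold change of the 27, -0.62 (SE 0.17, limma adjusted p = 0.106), and ECI2 was at 0.47 (SE 0.24, limma adjusted p = 0.275). The ECI2 to ECI1 ratio was 0.186 and 0.228 against 0.117 and 0.0766. DECR1, the dienoyl-CoA reductase, was at 32.0 and 23.0 TPM against 17.6 and 21.7 TPM (log2 fold change 0.46, limma adjusted p = 0.325). Without shNUP210 replicate 1 its log2 fold change was 0.23, and without replicate 2 it was 0.68.

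In peroxisomes, ABCD3 (chromosome 1, 94418455 to 94518666, plus strand), a half-transporter of the membrane that brings in branched chains and bile acid precursors, was at 34.3 and 34.2 TPM in shNUP210 and 25.5 and 18.1 TPM in shCon. The control libraries differed by 1.41-fold and both were lower than the knockdown libraries. Its log2 fold change was 0.65 (SE 0.24, 95% interval 0.067 to 1.23, limma adjusted p = 0.173). ACAA1 (chromosome 3, 38103129 to 38137242, minus strand), the peroxisomal thiolase, was at 155 and 143 TPM against 115 and 113 TPM. It was higher in both knockdown libraries, with a log2 fold change of 0.38 (SE 0.12, limma adjusted p = 0.137), which was 0.12, 0.12 and 0.087 after trimmed-mean, median-ratio and upper-quartile scaling. It shares 1403 exon bases with DLEC1, which lies on the other strand and was listed at means of 73.5 TPM in shNUP210 and 46.3 TPM in shCon.

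The remaining peroxisomal enzymes varied more between replicates than between groups. EHHADH, the bifunctional enzyme for straight and dicarboxylic chains, was at 17.3 and 24.9 TPM in shNUP210 and at 46.4 and 13.4 TPM in shCon. HSD17B4, the bifunctional enzyme for branched and very long chains, was at 56.7 and 113 TPM against 57.6 and 119 TPM. SCP2, whose gene encodes a thiolase for branched chains and a lipid transfer protein, was at 15.9 and 22.1 TPM against 16.6 and 22.3 TPM. In HSD17B4 and SCP2 the library numbered 2 was the higher in both groups, and in EHHADH both extremes were controls, 3.45-fold apart. Their log2 fold changes were -0.26, -0.052 and -0.038. The 95% intervals reached from -1.67 to 1.14 for EHHADH and from -1.15 to 1.04 for HSD17B4, so both a doubling and a halving lay within the interval for these 2 genes.

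**Figure D3:**
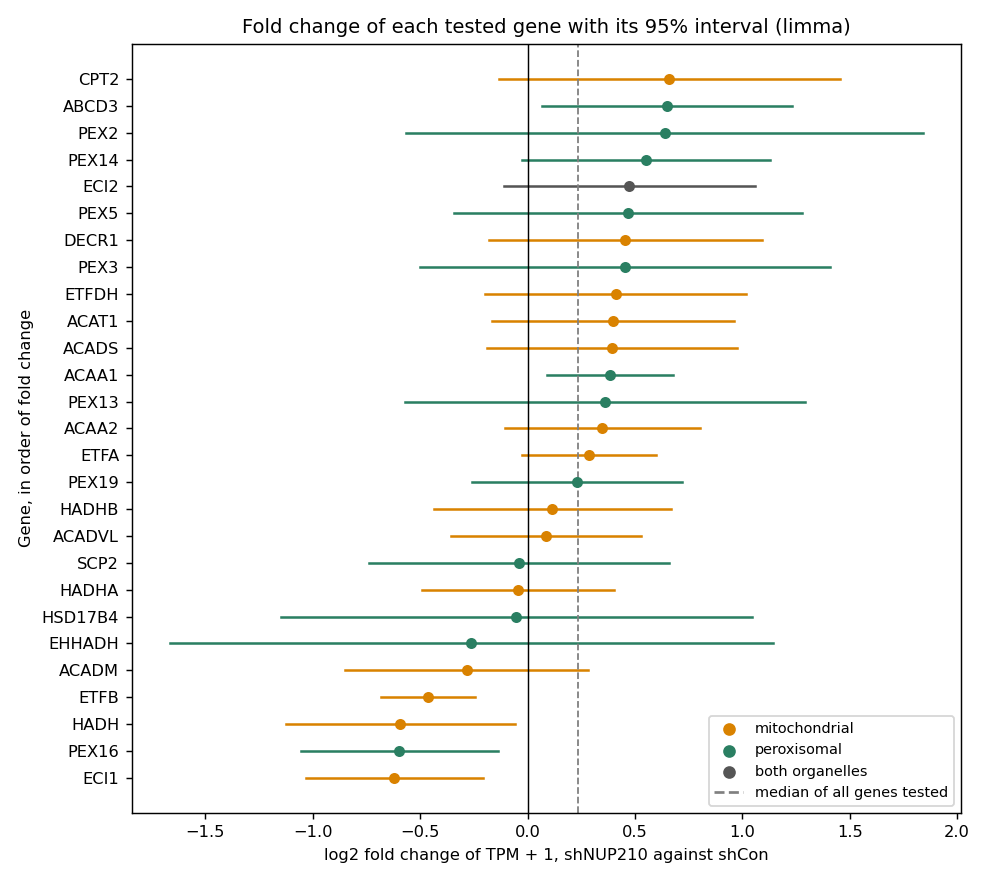
log2 fold change of TPM + 1 (shNUP210 against shCon) of the 27 genes tested, with 95% limma intervals as horizontal lines, coloured by organelle and ordered by size. The dashed line is the median of all genes tested, 0.23, and ETFB, HADH, PEX16 and ECI1 are the genes whose intervals lie wholly below 0.

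Insertion of peroxisomal membrane proteins rests on 3 peroxins: PEX19, a soluble chaperone, PEX3, its docking site, and PEX16, which recruits PEX3. PEX16 (chromosome 11, 45909669 to 45918812, minus strand) was at 26.2 and 23.9 TPM in shNUP210 and 37.7 and 39.1 TPM in shCon. PEX3 was at 5.95 and 6.23 TPM against 4.02 and 4.35 TPM, and PEX19 at 34.6 and 37.9 TPM against 27.8 and 33.9 TPM. PEX16 was thus lower and the other two higher in both knockdown libraries. The log2 fold change was -0.60 for PEX16 (SE 0.18, limma adjusted p = 0.137), 0.45 for PEX3 (limma adjusted p = 0.505) and 0.23 for PEX19 (limma adjusted p = 0.507). PEX16 stayed below 0 in all 5 other scalings. PEX19 was below 0 in 4 of the 5, at -0.059 at the lowest. PEX3 was above 0 in all 5, but at only 0.093 after quantile and 0.0042 after cyclic loess normalization. Within libraries, the PEX3 to PEX16 ratio was 0.227 and 0.261 against 0.107 and 0.111, and the PEX19 to PEX16 ratio 1.32 and 1.58 against 0.737 and 0.867.

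Matrix enzymes enter through PEX5, the receptor for the C-terminal targeting signal, which docks at PEX13 and PEX14. PEX14 was at 26.6 and 31.8 TPM in shNUP210 and 22.1 and 17.3 TPM in shCon, a log2 fold change of 0.55 (SE 0.23, limma adjusted p = 0.222) with no overlap. PEX5 was at 20.4 and 27.8 TPM against 22.0 and 13.0 TPM, and PEX13 at 13.8 and 7.96 TPM against 9.04 and 7.01 TPM, and both overlapped between the groups. The receptor is recycled by a ubiquitin ligase that includes PEX2 and an ATPase that includes PEX6. PEX2 was at 20.1 and 16.0 TPM against 6.53 and 18.7 TPM, where 1 control library lay within the knockdown range and the other far below it. PEX6 was at 3.69 and 3.66 TPM against 3.98 and 3.60 TPM, overlapping at a level under the filter.

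Mitochondrial and peroxisomal genes were then set side by side. Of 14 mitochondrial genes tested, 7 were higher and 4 lower in both knockdown libraries than in both controls, and of 12 peroxisomal genes 5 were higher and 1 lower. Over all genes tested, 42.9% were higher and 14.3% lower in this sense. The median log2 fold change was 0.20 for the mitochondrial genes and 0.37 for the peroxisomal genes, against 0.23 for all genes. Split further, it was -0.038 for the 5 peroxisomal enzymes and ABCD3 (2 above 0 and 3 below) and 0.45 for the 7 peroxins tested. After trimmed-mean scaling these medians were -0.30 and 0.21, so the medians differed in sign before and after it. Single genes of each group lay on both sides of 0 after that scaling. Among the enzymes and ABCD3, ABCD3 was at 0.39 and SCP2 at -0.30, and among the peroxins PEX14 was at 0.29 and PEX16 at -0.86. The peroxisomal values include PEX3, which was tested only because of its level in shNUP210. Without PEX3, 4 of 11 peroxisomal genes were higher and the median was 0.36, and the median of the peroxins was 0.41. After trimmed-mean scaling the medians were -0.064 for mitochondrial, 0.12 for peroxisomal and -0.018 for all genes, and 4 mitochondrial genes were higher and 5 lower, with 4 higher and 1 lower among the peroxisomal genes (24.9% higher and 28.1% lower of all genes). With ECI2 counted as mitochondrial, the median of that group was 0.29, and 0.017 after trimmed-mean scaling. After cyclic loess normalization the order of the medians was the opposite, 0.038 for mitochondrial and 0.021 for peroxisomal genes. No test of the difference between the organelles was made, and the medians of both lie close to that of all genes beside the range of their members, from -0.62 to 0.66.

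The levels were also summed by organelle. The 16 mitochondrial genes summed to 1129 and 1022 TPM in shNUP210 and 1183 and 1292 TPM in shCon, and the 13 peroxisomal genes to 431 and 492 TPM against 394 and 423 TPM. Peroxisomal transcripts were 38.1 and 48.2% of the mitochondrial sum in the knockdown libraries and 33.3 and 32.7% in the controls. ETFB made up 35.9 and 37.9% of the mitochondrial sum against 44.5 and 43.9%. Without ETFB the percentages were 59.5 and 77.5 against 60.0 and 58.3, so the groups overlapped. Without HSD17B4, which varied between replicates in both groups, the peroxisomal percentages of the full mitochondrial sum were 33.1 and 37.1 against 28.5 and 23.5, with no overlap. The peroxins alone summed to 151 and 155 TPM against 133 and 137 TPM. All these sums are of TPM as deposited, where the median log2 fold change of all genes tested was 0.23. The peroxisomal enzymes with ABCD3 summed to 279 and 337 TPM against 261 and 286 TPM, so their groups overlapped.

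**Figure D4:**
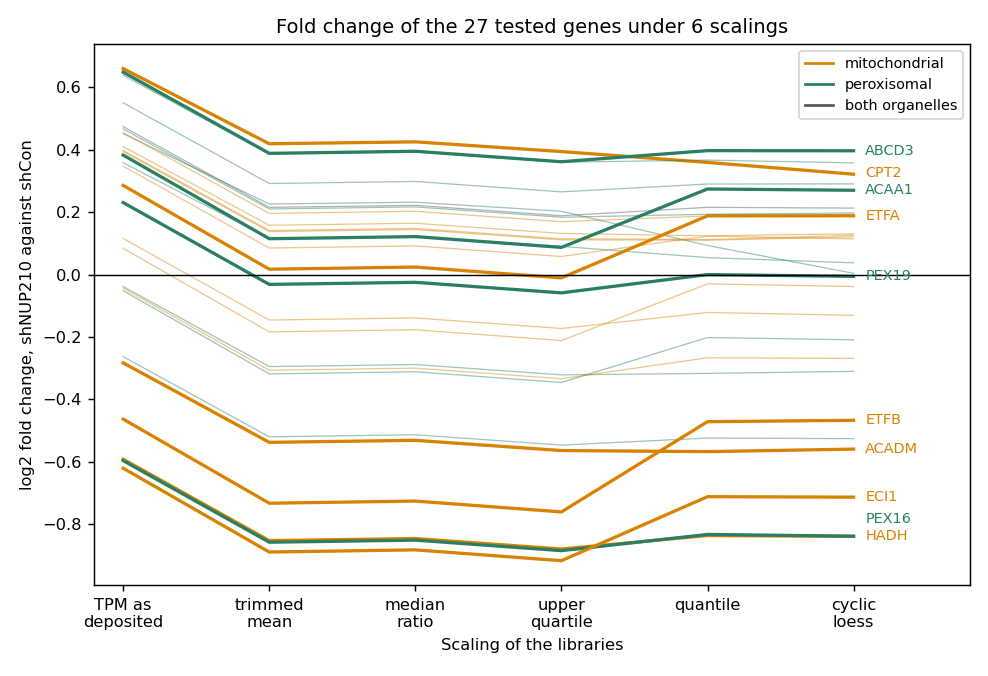
log2 fold change of the 27 genes tested (vertical axis) in TPM as deposited and under 5 other scalings of the libraries (horizontal axis), coloured by organelle, with 10 genes labelled. ETFB, ECI1, HADH, PEX16 and ACADM stay below 0 under all 6 and CPT2, ABCD3 and ACAA1 above 0, while PEX19 and ETFA lie near 0 after scaling.

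Of the 27 genes, 14 were above 0 and 9 below 0 under all 6 scalings, and 4 changed sign (ACADVL, HADHB, ETFA and PEX19). The size moved by over 1.5 times, or the sign changed, under at least 1 other scaling in 24 of the 27, all but HADH, ECI1 and PEX16. The less abundant genes tended to have the higher fold changes: across the 27 genes, Spearman's rho between log2 fold change and mean TPM was -0.56, and across all 10140 genes it was -0.16. With transcript GC content rho was -0.23 across the 27 genes and -0.27 across the 9980 genes with a known sequence. Genes share their libraries and are not independent replicates, so no p is given, and the part of level or GC content in the fold changes was not tested. The 95% interval lay within 1 log2 unit of 0 on both sides for 12 of the 27 genes, ACADVL, HADHA, HADHB, ETFA, ETFB and ACAA1 among them.

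Other genes of these pathways were read from 5 lists of 118 symbols in all. Among other mitochondrial oxidation genes 1 of 23 tested was called higher and 0 lower. Of the ketone body genes 0 of 6 were called, and of the other peroxins 0 of 2. Among other peroxisomal enzymes and transporters 0 of 33 were called higher and 1 lower, and among regulators and PPARA targets 0 of 11 and 1. Of all genes tested, 1.79% were called higher and 1.07% lower. Without overlap, 3 of the 6 ketone body genes were higher and 1 lower (42.9 and 14.3% of all genes). Of the 33 peroxisomal genes, 8 were higher and 9 lower in that sense. At an unadjusted limma p under 0.05, 5 of the 33 were higher and 7 lower (18.4 and 5.95% of all genes). The median log2 fold changes of the 5 lists, in that order, were 0.20, 0.077, 0.13, -0.078 and 0.18.

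FABP1, the liver fatty acid binding protein and a PPARA target, fell from 741 and 779 TPM in shCon to 303 and 313 TPM in shNUP210 (log2 fold change -1.30, SE 0.084, limma adjusted p = 0.00588). It was called under all 6 scalings, but not without the mean-variance trend (0.101) nor without shCon replicate 1 or 2 (0.0666 and 0.0737). Other genes of that list did not pass: PLIN2, a lipid droplet coat protein, was at 75.0 ± 1.7 and 50.1 ± 4.2 TPM (SD, n = 2) and RXRA, the partner receptor of PPARA, at 98.1 ± 2.0 and 86.6 ± 3.1 TPM in shNUP210 and shCon. NCOR1, a corepressor of nuclear receptors, was at 53.2 and 110.4 TPM against 38.7 and 42.6 TPM.

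ACOT8, a peroxisomal thioesterase that releases chain-shortened fatty acids, fell from 75.2 and 82.4 TPM in shCon to 42.2 and 36.8 TPM in shNUP210 (log2 fold change -0.98, SE 0.16, limma adjusted p = 0.048). It was called under all 6 scalings. The call ended when the filter was dropped (0.129) or lowered to 1 TPM in any 2 libraries (0.0809), at a pseudocount of 0.1 (0.0531), with no trend in the variance (0.134) and in each fit lacking 1 library (0.153 to 0.191). It also ended with the replicate block (0.0893). ACOT8 shares 1489 exon bases with SNX21. The 3 most abundant other members of the list did not pass: PRDX5, a peroxiredoxin, was at 346 ± 14 and 383 ± 3.6 TPM, IDH1, the cytosolic and peroxisomal isocitrate dehydrogenase, at 138 ± 1.6 and 143 ± 6.8 TPM, and FIS1, a fission factor of both organelles, at 254 ± 4.4 and 337 ± 34 TPM (SD, n = 2).

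ETFRF1, a regulatory factor of electron transfer flavoprotein, rose from 52.3 and 49.4 TPM in shCon to 100.5 and 94.9 TPM in shNUP210 (log2 fold change 0.93, SE 0.14, limma adjusted p = 0.0403). The call was lost under each of the other 5 scalings (0.0623 to 0.0694), when the filter was dropped (0.118) or lowered (0.0706), with no trend in the variance (0.134) and in each fit lacking 1 library (0.14 to 0.17), and with the replicate block (0.0799), and 798 of its exon bases are shared with a neighbouring gene. ECHS1 and HSD17B10, the short-chain hydratase and dehydrogenase, were the most abundant of the other mitochondrial genes at 185 ± 10 and 185 ± 10 TPM in shNUP210 and 153 ± 8.5 and 174 ± 42 TPM in shCon, and did not pass. ACSL4, an acyl-CoA synthetase, was at 47.5 ± 4.8 and 53.2 ± 4.4 TPM. Of the ketone body genes, ACAT2, SLC16A1 and BDH2 had log2 fold changes of 0.18, -0.022 and -0.47, and of the other peroxins PEX10 and PEX26 had -0.042 and 0.31, none past the threshold.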

How the data were processed

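RNA from 4 Huh7 libraries (2 shNUP210, 2 shCon, grouped by sample title) was measured by RNA sequencing, made with an Illumina TruSeq kit per the labels' protocols. The authors deposited 1 table per library of TPM values, a unit read from the column totals of 999992.7 to 999997.9. The build was hg38 and the tools named are STAR, RSEM, Trimmomatic and DESeq, per the submitters' processing notes. Versions and the annotation release are not given in the sources used here.

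Genes with at least 5 TPM in 2 libraries (10140) were tested in R 4.3.3 by limma 3.58.1, fitted to log2(TPM + 1) with the prior variance following mean level, two-sided, adjusted by Benjamini-Hochberg over all genes tested. Fold changes on that scale understate those of low genes. The script was tested on simulated data. Positions, exon overlaps and transcript GC came from GENCODE 29 on GRCh38, and ETFRF1, MMUT and ETFBKMT were matched by gene identifier. Of the 27 members tested, 13 share exon bases with another listed gene.

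The members, lists, pairs and level filter were chosen with earlier results of these data known. All 30 members are named, with every called gene and up to 3 of the most abundant others of each further list. Alternatives were other scalings, filters, pseudocounts and variance models, a replicate block and leaving out each library. Same-numbered libraries did not deviate together (correlation 0.0231), so the numbers were not taken as pairs.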

Additional observations from a re-analysis of the deposited data

How the results depend on the processing

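Over 459 values of the 27 tested genes under alternatives, 429 kept direction and side of the threshold, 3 passed it (ETFB, given above) and 27 changed sign, all in genes not called. No member was called under any filter, pseudocount or variance model, with the replicate block or without any library, and counting ECI2 with either organelle left the number called at 0. That choice, and leaving out PEX3, were also tried on the medians after the data were seen (0.29 mitochondrial and 0.38 peroxisomal with ECI2, 0.36 peroxisomal without PEX3). Trimmed-mean, median-ratio and upper-quartile scaling each called 1 member, mitochondrial (ETFB), and none peroxisomal. The mitochondrial median log2 fold change was then -0.064, -0.057 and -0.092, and the peroxisomal median 0.12, 0.12 and 0.089, with 0.040 mitochondrial and 0.074 peroxisomal after quantile and 0.038 and 0.021 after cyclic loess normalization. Of all genes, 290 were called, against 15 when the filter was dropped, 57 when it was lowered to 1 TPM in any 2 libraries, 0 with no trend in the variance (2290 at an unadjusted p under 0.05), 63 with the replicate block, and 4 to 27 when a library was left out. The log2 fold changes that changed sign, for trimmed-mean, median-ratio, upper-quartile, quantile and cyclic loess in that order, were -0.18, -0.18, -0.21, -0.030 and -0.038 for ACADVL and -0.15, -0.14, -0.17, -0.12 and -0.13 for HADHB. They were -0.031, -0.025, -0.059 and, after cyclic loess, -0.0057 for PEX19, and -0.011 after upper-quartile scaling for ETFA. Over the fits without 1 library, the values ran from -0.12 to 0.29 for ACADVL, from -0.14 to 0.052 for HADHA, from -0.095 to 0.33 for HADHB, from -1.12 to 0.59 for EHHADH, from -0.57 to 0.47 for HSD17B4, from -0.26 to 0.19 for SCP2, from -0.0012 to 0.72 for PEX13 and from -0.053 to 1.33 for PEX2. In 6 more genes the value kept its sign but moved by over 1.5 times, from 0.23 to 0.68 for DECR1, from 0.27 to 0.68 for ECI2, from 0.41 to 0.88 for ABCD3, from 0.25 to 0.54 for ACADS, from 0.11 to 0.83 for PEX5 and from 0.091 to 0.37 for PEX19. The cause was not tested, and a fit without a library assumes that the lone library varies like the other group. TPM keeps no depth, so the limit that depth sets is unknown.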
